A study of Mus musculus with 10 samples.

Results

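Azin2 encodes antizyme inhibitor 2, a catalytically inactive relative of ornithine decarboxylase that keeps polyamine synthesis running. It was examined here together with 9 other genes of polyamine metabolism in mouse blood progenitor cells that carried a leukaemia fusion protein. Azin2 was chosen by its log2 signal on these same arrays, which was much lower with the fusion than in the control, so its values are a description with no test. The other 9 genes, Azin1, Odc1, Oaz1, Oaz2, Amd1, Srm, Sms, Sat1 and Smox, were listed for their function. Of the 10 genes, 8 had a probe set of their own among the 18193 genes measured. Amd1 was not analysed here, and the probe sets listed for Sms also list its pseudogene Sms-ps.

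Expression was measured on 10 Affymetrix arrays, each hybridised with amplified RNA from 25000 sorted cells. The cells came from bone marrow of C57BL/6 mice aged 5 to 6 weeks and were grown in serum with SCF at 10 ng/ml, IL-6 at 20 ng/ml and IL-3 at 10 ng/ml, and all of them were exposed in 2 rounds to a MigR1 retrovirus that carries a GFP marker. Sorting 48 hours after the second exposure kept live GFP-positive cells that carried Sca1 and cKit and no lineage marker. The virus carried the marker alone in the GFP group (3 arrays), AML1/ETO, the product of the t(8;21) fusion of RUNX1 with the ETO corepressor, in the AML1/ETO group (3 arrays), or the same fusion with the substitution W692A in the MYND domain that binds the corepressors SMRT and N-CoR, in the W692A group (4 arrays). The cells are therefore short-term cultures in which expression is driven from a virus, not from the cell's own Runx1 gene. Replicates were separate transductions. The sources used here do not say whether they came from different mice, so p-values measure the spread between transductions.

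Polyamines are small, positively charged molecules that dividing cells need for nucleic acid packing and for protein synthesis. Ornithine decarboxylase makes putrescine from ornithine, and spermidine and spermine synthases extend it with groups taken from decarboxylated S-adenosylmethionine. Antizymes bind ornithine decarboxylase and send it to the proteasome, and antizyme inhibitors bind the antizymes and so protect the enzyme. In most tissues the pathway is active where cells divide, and Azin2 is otherwise known mainly from brain, testis and, in human tissue, mast cells.

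Odc1, Oaz2 and Sat1 were the genes of the set whose signal rose with AML1/ETO, and the sequence upstream of each follows, because AML1/ETO keeps the DNA-binding domain of AML1. The sequences are from RefSeq (GRCm38.p6), read 5′ to 3′ on the gene's strand and stopped before the first annotated base of the gene. Capitals mark TGTGGT, the core of the site that this domain recognises, searched on both strands.
Odc1, chr12:17544623-17544807, plus strand: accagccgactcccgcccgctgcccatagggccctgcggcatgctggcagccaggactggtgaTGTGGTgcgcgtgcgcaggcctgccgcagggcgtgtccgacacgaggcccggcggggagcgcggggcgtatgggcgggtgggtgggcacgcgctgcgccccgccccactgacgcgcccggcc
Oaz2, chr9:65676298-65676547, plus strand: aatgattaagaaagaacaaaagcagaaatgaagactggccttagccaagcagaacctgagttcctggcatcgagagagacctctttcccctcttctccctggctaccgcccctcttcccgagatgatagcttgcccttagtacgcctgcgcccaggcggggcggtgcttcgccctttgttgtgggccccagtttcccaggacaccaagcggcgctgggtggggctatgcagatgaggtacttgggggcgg
Sat1, chrX:155216450-155216699, minus strand: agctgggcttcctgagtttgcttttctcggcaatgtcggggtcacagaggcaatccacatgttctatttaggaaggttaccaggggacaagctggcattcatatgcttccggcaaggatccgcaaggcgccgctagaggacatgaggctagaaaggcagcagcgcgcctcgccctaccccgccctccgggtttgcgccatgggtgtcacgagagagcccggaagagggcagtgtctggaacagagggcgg
In windows of 250 bases before the listed start, TGTGGT was found 1 time for Odc1 and not for Oaz2 or Sat1, and 14.0% of all 32851 such windows hold it. CACGTG, the palindromic E-box that Myc and Max bind, was in none of these 3 windows and in 6.02% of all. GGGCGG, the GC box bound by Sp1, was found 4 times for Odc1, 3 times for Oaz2 and 2 times for Sat1, on either strand and with no overlap with TGTGGT, and 32.7% of all windows hold it. The Odc1 window runs past the annotated gene start, so the last of its GC boxes lies beyond the printed stretch. Windows were also given for Oaz1, Smox, Amd1 and Sms, and none of them held TGTGGT. Smox, which did not pass in any comparison, held GGGCGG 6 times, Amd1 held it 1 time and Oaz1 0 times. For Sms, CACGTG was found 1 time in the first window listed and GGGCGG 4 times in a further window. No window was given for Azin2, Azin1 or Srm, whose signals were lower with AML1/ETO. A match is a description of letters and does not show binding.

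All values below are log2 intensities as the authors deposited them. A background bound of 2.04 was taken as the brightest value of the unlabelled bacterial control probe sets on any array. Where an array of the dimmer group lay below it, the fold was computed with all values under the bound, in both groups, raised to it. For Sat1 and Eif5a2 this also raised arrays of the brighter group, so their folds are not minimum sizes. A gene was called when its limma p, adjusted over all 18193 genes, was under 0.05. The 3 comparisons share arrays: both constructs were set against the same 3 GFP arrays, and the 2 constructs against each other. Over the 8820 genes brighter than the bound in some group, the correlation between arrays was 0.984 to 0.992 within groups and 0.892 to 0.965 across groups. The 3′ Gapdh control exceeded the 5′ control, a sign of RNA integrity and amplification, by 4.93 ± 0.0889 in the GFP group (SD, n = 3). The excess was 4.38 ± 0.573 in the AML1/ETO group (SD, n = 3) and 4.01 ± 0.168 in the W692A group (SD, n = 4), and AML1/ETO replicate 3 had the highest value of the 10 arrays, 5.04. The W692A arrays, at 3.81 to 4.17, all lay below the GFP arrays, at 4.83 to 4.99. A fit with this difference as a covariate therefore separates it poorly from the W692A group, and a call lost there shows no cause. Of 9 stem and progenitor markers 8 had a group mean above the bound in at least 1 group. The exception was Kit, the gene of a sorted surface marker, which lay below it on every array.

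Azin2 was bright in the control cells and much dimmer with both fusion proteins. Its signal was 7.02, 7.06 and 7.28 on the GFP arrays. It was 3.33, 3.45 and 3.80 with AML1/ETO, and 4.29, 4.80, 4.02 and 4.65 with W692A. No array of one group overlapped with another, and the substituted fusion lay between the control and the intact fusion. The mean log2 difference was -3.60 (SE 0.186) between AML1/ETO and GFP, which is 12.1-fold, and -2.68 (SE 0.174) between W692A and GFP, which is 6.42-fold. W692A exceeded AML1/ETO by 0.92 (SE 0.174), or 1.89-fold. Only 6 of 18193 genes had a more negative difference with AML1/ETO, and 13 with W692A. These values chose the gene, and all 3 comparisons use arrays of the one that did, so none is tested.

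Azin2 lies on mouse chromosome 4 (GRCm38.p6, chr4:128930233-128962456) and had 3 probe sets. The values above are from the brightest. The other two stayed under the bound throughout, at 0.26 to 1.59, and so cannot show the size of a change. Their GFP arrays were nevertheless all above their AML1/ETO and W692A arrays. With the mean of all 3 probe sets the difference was -1.49 for AML1/ETO and -1.12 for W692A.

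**Figure D1:**
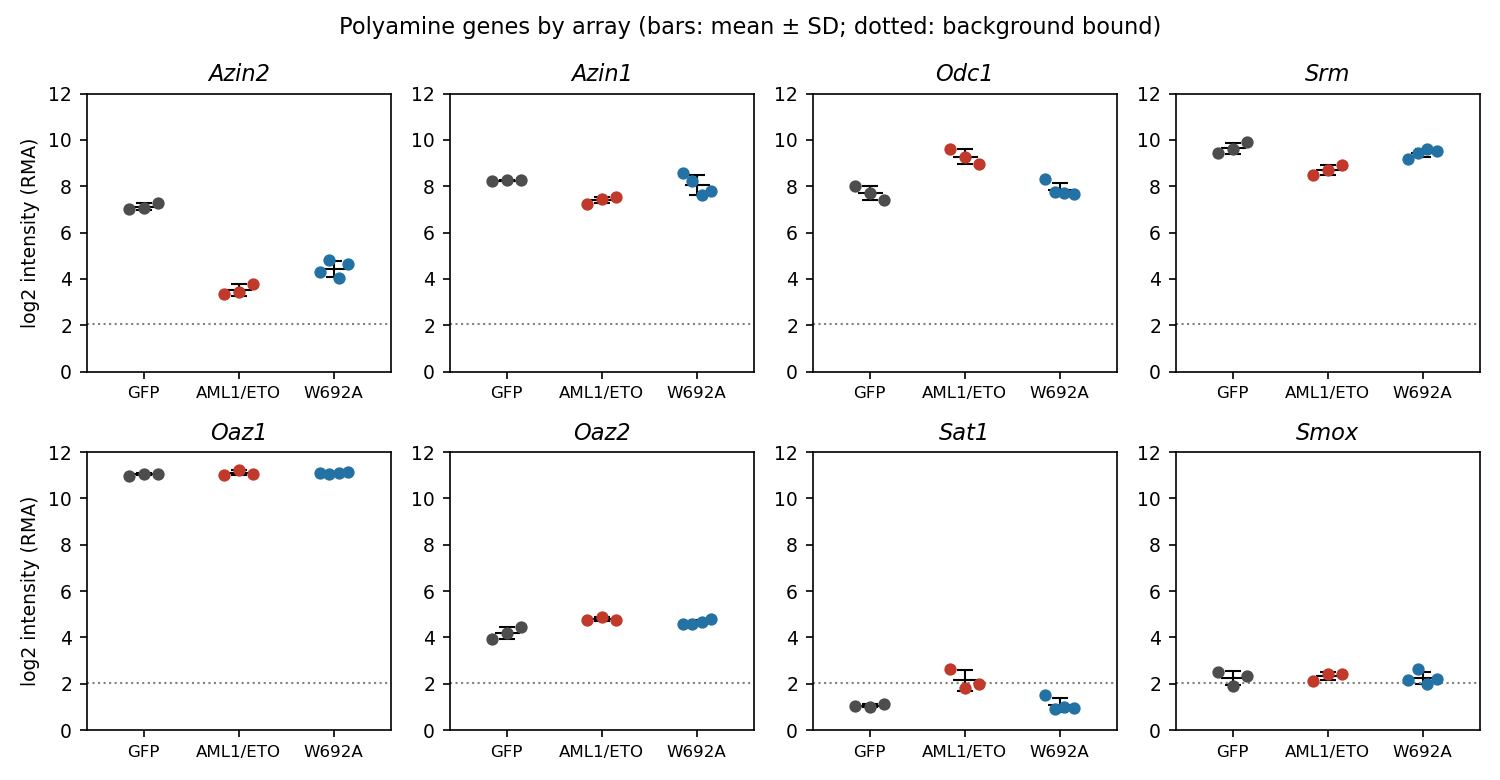
Log2 intensity of the 8 measured polyamine genes on each array (points), with the mean and SD of each group (bars), and the background bound of 2.04 (dotted). Azin2 is at 7.02 to 7.28 with GFP and at 3.33 to 3.80 with AML1/ETO, while Odc1 is highest with AML1/ETO and Oaz1 lies near 11 in all groups.

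Of the 7 other measured genes, 5 passed between AML1/ETO and GFP, 3 higher and 2 lower, where 28.6% of all genes passed. Between W692A and GFP 1 of 7 passed, against 14.5% of all genes. Between W692A and AML1/ETO 4 of 7 passed, against 20.7%. The median log2 difference of the 7 was 0.06, 0.05 and -0.07 in these comparisons, and that of all genes -0.02, 0.01 and 0.03. The groups did not overlap for 5 of the 7 genes between AML1/ETO and GFP, for 2 between W692A and GFP and for 4 between W692A and AML1/ETO, beside 39.1%, 22.3% and 27.2% of all genes. In bulk samples like these, fewer cells of a type and less RNA per cell cannot be told apart.

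Odc1, the gene of ornithine decarboxylase and the entry point of the pathway, rose with AML1/ETO and not detectably with W692A. Its signal was 8.02, 7.71 and 7.40 with GFP and 9.60, 9.27 and 8.95 with AML1/ETO. With W692A it was 8.29, 7.76, 7.69 and 7.69. All AML1/ETO arrays exceeded all others, and the W692A and GFP arrays overlapped. The rise with AML1/ETO was 2.96-fold (1.56 ± 0.201 SE on the log2 scale, limma adjusted p = 2.31e-05). W692A differed from GFP by 0.15 (95% interval -0.26 to 0.55, limma adjusted p = 0.707) and lay 2.67-fold below AML1/ETO (-1.42 ± 0.188 SE on the log2 scale, limma adjusted p = 6.57e-05). Each of 21 alternative fits, among them those leaving out each array in turn, kept these 3 outcomes.

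The other Odc1 probe sets gave the same 3 outcomes. In a fit of every probe set, the second, of a design type that can cross-hybridise, had a mean of 6.44 with GFP, 7.87 with AML1/ETO and 6.84 with W692A, and differed by 1.43 between AML1/ETO and GFP (limma adjusted p = 0.00129). The third had means of 6.05, 7.98 and 6.20 and differed by 1.93 (limma adjusted p = 6.05e-06). W692A lay below AML1/ETO by -1.03 and -1.78 on the log2 scale in them. Odc1 lies at chr12:17544808-17551502.

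Azin1 (chr15:38487430-38519294), the gene of the other antizyme inhibitor, was lower with AML1/ETO. Its signal was 8.22, 8.25 and 8.27 with GFP and 7.24, 7.44 and 7.53 with AML1/ETO. With W692A it was 8.57, 8.24, 7.62 and 7.81, a wider spread that covered the GFP values and stayed above all AML1/ETO arrays. Azin1 fell 1.79-fold with AML1/ETO (-0.84 ± 0.194 SE on the log2 scale, limma adjusted p = 0.00349), and W692A exceeded AML1/ETO 1.57-fold (0.65 ± 0.182 SE on the log2 scale, limma adjusted p = 0.0176). Between W692A and GFP the difference was -0.19 (95% interval -0.58 to 0.20, limma adjusted p = 0.596). The call was lost with the Gapdh difference as a covariate (limma adjusted p = 0.0505), and the difference between the 2 constructs missed it without AML1/ETO replicate 1 (limma adjusted p = 0.081) or without W692A replicate 2 (limma adjusted p = 0.0515). A second Azin1 probe set, with a mean of 4.59 with GFP, differed by only -0.25 with AML1/ETO (limma adjusted p = 0.486), so the probe sets of this gene disagree there. It gave the same difference between the constructs, 0.66 (limma adjusted p = 0.0251). The third probe set was below the background bound.

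**Figure D2:**
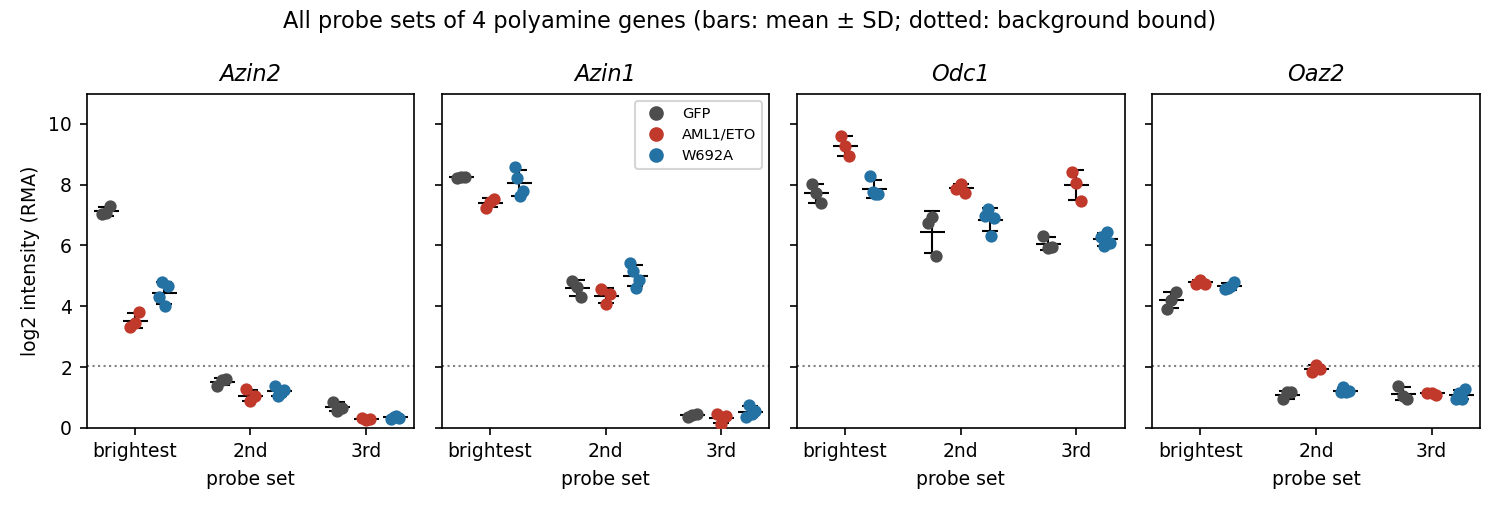
Log2 intensity on each array for all 3 probe sets of Azin2, Azin1, Odc1 and Oaz2, ordered by mean signal, with the mean and SD of each group (bars) and the background bound of 2.04 (dotted). All 3 Odc1 probe sets are highest with AML1/ETO, whereas 2 of the 3 Azin2 probe sets lie below the bound.

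Oaz1 (chr10:80826656-80829290), the main antizyme and the target of both inhibitors, gave 10.98, 11.07 and 11.05 with GFP, 11.01, 11.22 and 11.06 with AML1/ETO, and 11.08, 11.07, 11.10 and 11.13 with W692A. Its difference was 0.06 with AML1/ETO (95% interval -0.17 to 0.30, limma adjusted p = 0.763) and 0.06 with W692A (-0.16 to 0.28, limma adjusted p = 0.788). The intervals cover changes of either sign but none as large as that of Odc1. Antizyme is made only when a ribosome shifts frame on its messenger, a step that these arrays do not measure. A further probe set is listed for both Oaz1 and its pseudogene Oaz1-ps and was neither assigned to a gene nor tested. It gave 8.23, 8.11 and 8.40 with GFP and 8.52, 8.53 and 8.43 with AML1/ETO. With W692A it gave 8.59, 8.54, 8.58 and 8.53, so the arrays of both constructs were above the GFP arrays.

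Oaz2 (chr9:65676548-65690300), a second antizyme, was higher with both constructs. It gave 3.93, 4.20 and 4.46 with GFP, 4.74, 4.88 and 4.75 with AML1/ETO, and 4.57, 4.59, 4.66 and 4.81 with W692A, with no overlap between the controls and either construct. Oaz2 rose 1.51-fold with AML1/ETO (0.59 ± 0.138 SE on the log2 scale, limma adjusted p = 0.00396) and 1.38-fold with W692A (0.46 ± 0.130 SE on the log2 scale, limma adjusted p = 0.0265). The constructs differed by -0.13 (95% interval -0.41 to 0.15, limma adjusted p = 0.591). The call with W692A was lost with the Gapdh difference as a covariate (limma adjusted p = 0.404), with the mean of all Oaz2 probe sets (0.187), and without GFP replicate 1 (0.150), GFP replicate 2 (0.0719) or W692A replicate 4 (0.0788). A dimmer Oaz2 probe set had means of 1.09 with GFP, 1.94 with AML1/ETO and 1.23 with W692A, all at or below the bound, and passed with AML1/ETO (limma adjusted p = 6.88e-05) but not with W692A (limma adjusted p = 0.545). Unlike the brightest probe set, it was lower with W692A than with AML1/ETO (-0.72 on the log2 scale, limma adjusted p = 0.000336). The third, also below the bound, did not pass in any comparison.

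Srm (chr4:148591513-148594619), the gene of spermidine synthase, fell with AML1/ETO. It gave 9.43, 9.60 and 9.90 with GFP and 8.48, 8.72 and 8.93 with AML1/ETO. With W692A it was 9.17, 9.45, 9.60 and 9.52. The AML1/ETO arrays lay below all others, and the W692A arrays overlapped with the controls. The fall was 1.91-fold (-0.93 ± 0.158 SE on the log2 scale, limma adjusted p = 0.000299), and W692A was 1.66-fold above AML1/ETO (0.73 ± 0.148 SE on the log2 scale, limma adjusted p = 0.00226). W692A and GFP differed by -0.21 (95% interval -0.52 to 0.11, limma adjusted p = 0.438). Each of 21 alternative fits kept these outcomes. The brightest probe set listed for both Sms, the spermine synthase gene, and Sms-ps gave 6.89, 6.98 and 6.80 with GFP, 6.26, 6.33 and 6.27 with AML1/ETO, and 6.75, 6.69, 6.75 and 6.78 with W692A. It cannot be assigned to either gene and was not tested.

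The catabolic genes were dim. Sat1 (chrX:155213126-155216449), which encodes the acetyltransferase that marks spermidine and spermine for export or breakdown, gave 1.03, 0.99 and 1.12 with GFP and 2.65, 1.80 and 1.98 with AML1/ETO, and 1.53, 0.89, 1.01 and 0.94 with W692A. Only AML1/ETO replicate 1 exceeded the background bound, although all AML1/ETO arrays were above all others. Sat1 was called higher with AML1/ETO (1.10 ± 0.202 SE on the log2 scale, limma adjusted p = 0.000622), or 1.15-fold with values under the bound raised to it. W692A was below AML1/ETO by -1.05 ± 0.189 on the log2 scale (SE, limma adjusted p = 0.00092). Smox (chr2:131491858-131525183), the spermine oxidase gene, gave 1.92 to 2.52 with GFP, 2.12 to 2.42 with AML1/ETO and 2.00 to 2.62 with W692A, around the bound, and did not pass in any comparison (limma adjusted p = 0.849 to 0.978).

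**Figure D3:**
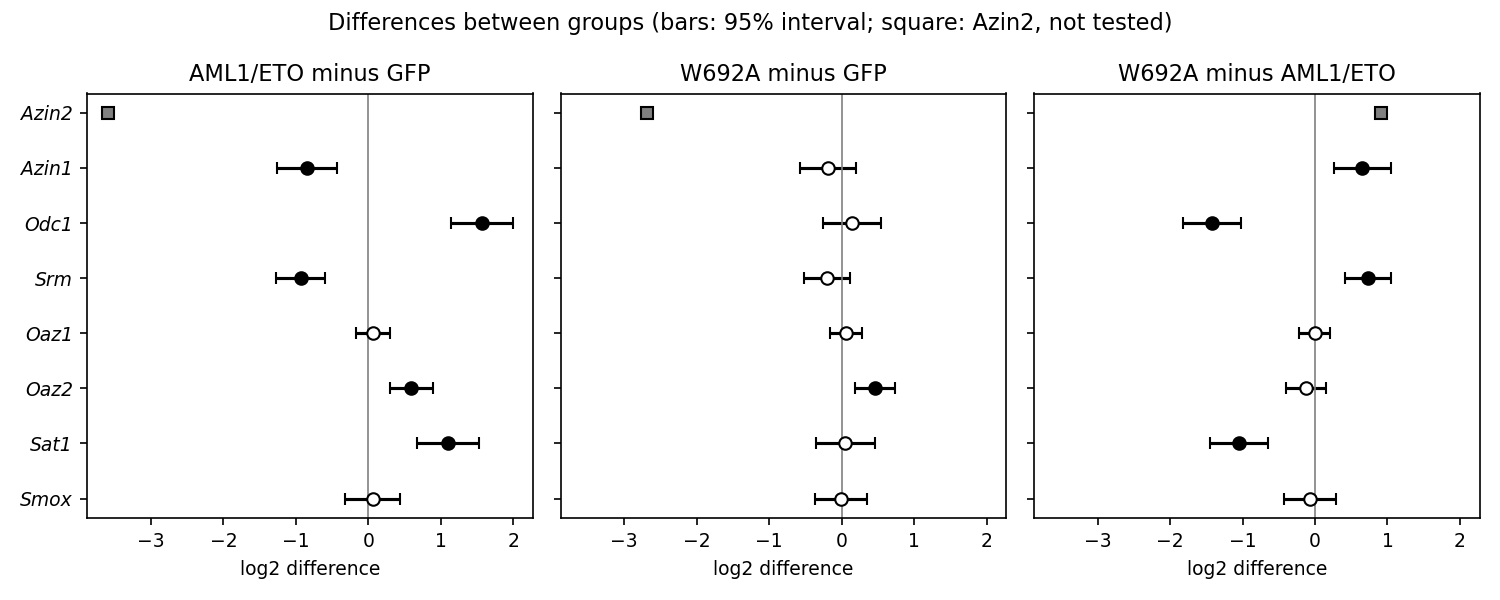
Log2 differences of the 8 measured genes in the 3 comparisons, with 95% intervals from the limma fit. Filled circles passed at an adjusted p under 0.05, open circles did not, and the square is Azin2, which was not tested. Odc1, Sat1, Azin1 and Srm pass in the first and the last comparison, and only Oaz2 passes between W692A and GFP.

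The pathway beyond these genes was followed with a list of 32 genes, of which 27 were measured and 18 had a group mean above the bound. With AML1/ETO 3 rose, 9 fell and 15 did not pass, beside 12.9% of all genes higher and 15.8% lower, and the median log2 difference was -0.15. With W692A against GFP 0 rose, 5 fell and 22 did not pass, beside 5.45% and 9.07%, and the median was -0.03. Between W692A and AML1/ETO 7 were higher and 2 lower, beside 9.61% and 11.1%.

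Genes of the methionine salvage route, which recycles the methylthio group left over by spermidine and spermine synthesis, were lower with AML1/ETO. In this list of S-adenosylmethionine supply and salvage, 5 of 7 measured genes fell, 0 rose and 2, Mat2b and Apip, did not pass. The median log2 difference was -1.01, beside -0.02 for all genes, of which 15.8% fell and 12.9% rose. Adi1, a dioxygenase of the route, gave 7.51, 7.11 and 7.55 with GFP, 5.89, 5.87 and 6.09 with AML1/ETO and 6.77, 7.23, 7.10 and 6.95 with W692A. It fell 2.72-fold with AML1/ETO (-1.44 ± 0.150 SE on the log2 scale, limma adjusted p = 2.95e-06) and was 2.09-fold higher with W692A than with AML1/ETO (limma adjusted p = 6.39e-05). Enoph1, the enolase-phosphatase, fell 2.30-fold with AML1/ETO (limma adjusted p = 0.00012) and 1.83-fold with W692A (limma adjusted p = 0.00285, lost with the Gapdh covariate at 0.624).

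More genes of that list fell. Mri1, the isomerase of the route, fell 2.20-fold (limma adjusted p = 8.54e-06). Ahcy, which removes S-adenosylhomocysteine, fell 2.02-fold (limma adjusted p = 1.33e-05), and Mtap, the phosphorylase that opens the route, fell 1.57-fold (limma adjusted p = 0.00117). With W692A 2 of the 7 genes, Enoph1 and Mri1, were lower than with GFP, beside 9.07% of all genes. Against AML1/ETO 4 of the 7 were higher with W692A, beside 9.61% of all genes. Those 4 were Adi1, Ahcy (1.77-fold), Mri1 (1.62-fold) and Apip (1.56-fold, limma adjusted p = 0.00114), the dehydratase of the route.

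Of 7 genes of arginine and ornithine supply, 2 were higher and 1 was lower with AML1/ETO, beside 12.9% and 15.8% of all genes. Arg1, the arginase that makes ornithine from arginine, gave 2.28, 2.96 and 3.46 with GFP, 5.22, 5.37 and 4.79 with AML1/ETO and 3.95, 4.97, 2.64 and 4.32 with W692A. It rose 4.68-fold with AML1/ETO (2.23 ± 0.428 SE on the log2 scale, limma adjusted p = 0.000881), and the W692A arrays overlapped with both other groups. Slc7a1, the cationic amino acid carrier CAT1, fell 1.80-fold with AML1/ETO (limma adjusted p = 0.000327) and 1.34-fold with W692A (limma adjusted p = 0.0492). Slc7a2, a related carrier, was called higher with AML1/ETO (limma adjusted p = 0.0048, lost with the Gapdh covariate at 0.0601) and higher there than with W692A (limma adjusted p = 0.00535), with all group means below the bound.

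Arg1 is also a gene of activated macrophages. Of 6 monocyte and macrophage markers, 4 rose with AML1/ETO and 4 with W692A, beside 12.9% and 5.45% of all genes. Their mean signal per array was 4.92 to 5.17 with GFP, 5.99 to 6.37 with AML1/ETO and 5.68 to 6.04 with W692A. Adgre1, a macrophage surface antigen, gave 4.65, 4.59 and 4.74 with GFP, 6.90, 7.07 and 7.36 with AML1/ETO and 6.49, 6.55, 6.60 and 6.79 with W692A. The 2 markers that did not rise, Mrc1 and Cd68, did not pass with either construct. Mrc1 had means of 4.37 with GFP, 3.71 with AML1/ETO and 3.78 with W692A, and Cd68 of 3.83, 3.51 and 3.79. None of the 6 was below the bound in every group. Their part in the Arg1 result was not tested.

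Spermidine is also used to make hypusine, a modified lysine found in the translation factor eIF5A. Eif5a fell 1.59-fold with AML1/ETO (limma adjusted p = 0.000359), from 10.03, 9.74 and 9.75 with GFP to 9.16, 9.14 and 9.20. With W692A it gave 9.42, 9.43, 9.50 and 9.56, all below the GFP arrays, and was called lower than with GFP (1.29-fold, limma adjusted p = 0.037). Eif5a2, the dim relative of Eif5a, was called lower with each construct (limma adjusted p = 0.00131 with AML1/ETO and 0.00619 with W692A, the latter lost with the Gapdh covariate at 0.149). With values under the bound raised to it, the fall was 1.26-fold with each. Only 2 of 3 GFP arrays and no array of either construct lay above the bound. W692A replicate 1, at 1.89, exceeded GFP replicate 2, at 1.85, so these groups overlapped. The genes of the enzymes that build hypusine, Dhps and Dohh, did not pass with AML1/ETO (limma adjusted p = 0.0527 and 0.0571). Dohh was 1.32-fold higher with W692A than with AML1/ETO (limma adjusted p = 0.0301). Among transporters, 1 of 6 measured genes rose with AML1/ETO and 1 fell, beside 12.9% and 15.8% of all genes. The one that fell was Atp13a2, a lysosomal polyamine exporter, with 5.75, 5.93 and 5.85 with GFP, 4.69, 4.46 and 4.83 with AML1/ETO and 5.82, 6.09, 6.22 and 6.28 with W692A. The fall was 2.28-fold (-1.19 ± 0.141 SE on the log2 scale, limma adjusted p = 1.1e-05), and W692A was 2.73-fold above AML1/ETO (limma adjusted p = 2.23e-06). The one that rose, Atp13a3, of the same family, rose 1.43-fold (limma adjusted p = 0.0226) and was 1.64-fold lower with W692A than with AML1/ETO (limma adjusted p = 0.00253).

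**Figure D4:**
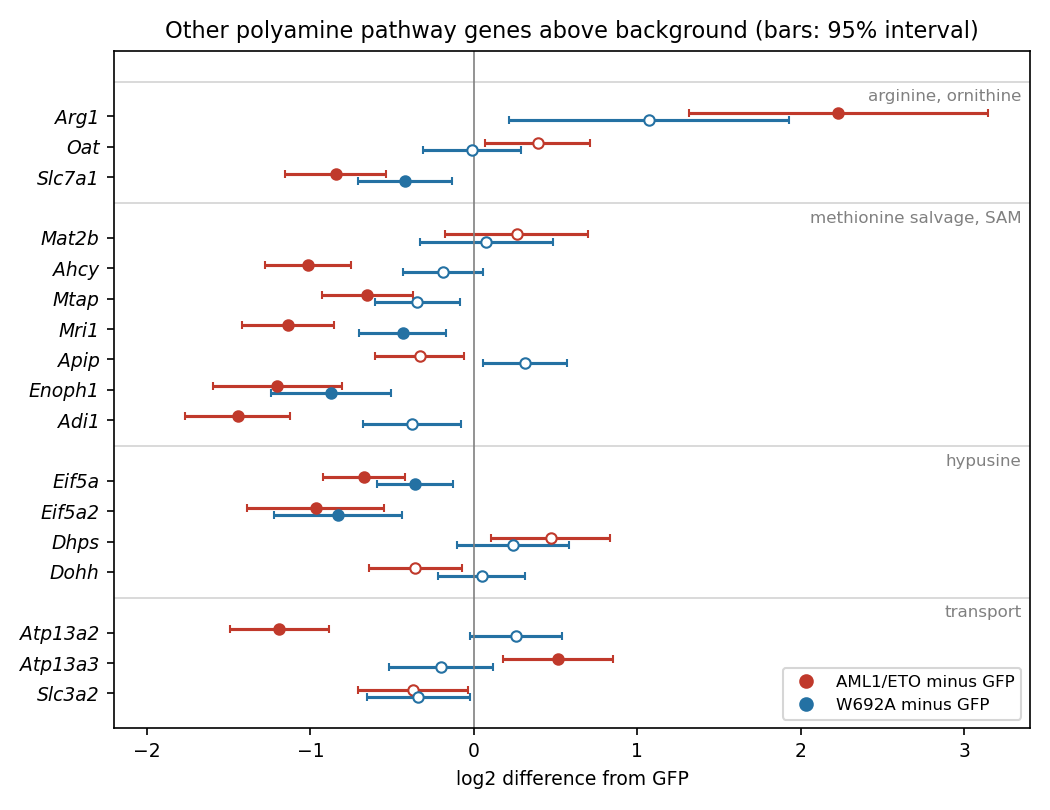
Log2 difference from GFP of the pathway genes brighter than the background bound in some group (Sat2 is not drawn), for AML1/ETO (red) and W692A (blue), with 95% intervals. Filled points passed at an adjusted p under 0.05; 5 of the 7 salvage and S-adenosylmethionine genes are filled and below 0 for AML1/ETO.

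Myc, a transcription factor known to drive Odc1 in other settings, was lower with both constructs. Myc gave 6.68, 7.07 and 6.98 with GFP, 5.33, 5.89 and 5.83 with AML1/ETO and 6.13, 6.13, 5.87 and 6.01 with W692A. It fell 2.34-fold with AML1/ETO (limma adjusted p = 2.46e-05) and 1.83-fold with W692A (limma adjusted p = 0.000947, lost with the Gapdh covariate at 0.265). Between W692A and AML1/ETO the Myc difference was 0.36 and did not pass (limma adjusted p = 0.116). Mycn, its relative, fell 1.47-fold with AML1/ETO (limma adjusted p = 0.00426, lost with the Gapdh covariate at 0.0983). Whether Myc or Mycn had a part in the Odc1 difference was not tested.

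All 8 measured genes of a short cell division list fell with AML1/ETO, 2 of them fell with W692A, and all 8 were higher with W692A than with AML1/ETO, beside 15.8%, 9.07% and 9.61% of all genes. Their mean signal per array was 8.20 to 8.31 with GFP, 6.87 to 7.23 with AML1/ETO and 7.89 to 8.11 with W692A. Mki67, a marker of cycling cells, fell 1.90-fold, and Mcm5, of the replicative helicase, fell 2.51-fold. The 2 genes that fell with W692A, Aurkb and Pcna, did not pass there with the Gapdh covariate (limma adjusted p = 0.907 and 0.903). The Gapdh difference did not overlap between the W692A and GFP arrays, and the cause of this loss was not tested. The part of cell division in the differences of Srm, Azin1 and Odc1 was not tested.

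Some mast cell markers were higher where Azin2 was lower. Of 10 mast cell and basophil markers, 4 rose with AML1/ETO and 0 fell, 3 rose with W692A, and 5 were lower with W692A than with AML1/ETO. Of all genes 12.9% rose and 15.8% fell with AML1/ETO, 5.45% rose and 9.07% fell with W692A, and 11.1% were lower with W692A than with AML1/ETO, which also stand beside the marker counts that follow. Their mean signal per array was 2.75 to 3.21 with GFP, 4.08 to 4.76 with AML1/ETO and 3.47 to 3.62 with W692A. Hdc, the histidine decarboxylase of these cells, gave 4.32, 3.95 and 3.95 with GFP, 8.13, 7.88 and 8.37 with AML1/ETO and 6.02, 6.25, 5.86 and 5.95 with W692A. It rose 16.6-fold with AML1/ETO and 3.85-fold with W692A (limma adjusted p = 7.35e-11 and 3.36e-07). The mature mast cell protease genes Tpsb2, Tpsab1, Cma1 and Mcpt4 were under the bound on all 10 arrays. Fcer1a and Mcpt8 were above it on all 10 arrays and did not pass with either construct against GFP. Fcer1a had means of 2.93 with GFP, 3.12 with AML1/ETO and 2.75 with W692A, and Mcpt8 of 3.33, 3.59 and 2.66.

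Eosinophil markers were lower with both constructs. Of 5 measured, 3 fell with AML1/ETO and 4 with W692A, and their mean signal per array was 5.13 to 5.36 with GFP, 3.14 to 3.94 with AML1/ETO and 3.13 to 3.26 with W692A. Ccr3, the eotaxin receptor, was below the bound on every array. Of 9 neutrophil markers 6 fell with AML1/ETO and 6 with W692A, with array means of 6.17 to 6.71, 5.04 to 6.09 and 5.29 to 5.90. Of 5 erythroid markers 3 fell with each construct, with array means of 2.72 to 3.00, 1.29 to 1.54 and 1.44 to 1.63. Of 5 megakaryocyte markers 2 rose and 3 fell with AML1/ETO, and 1 rose and 3 fell with W692A, with array means of 4.40 to 4.73, 4.60 to 4.71 and 3.60 to 4.09. Of the stem and progenitor markers 6 rose and 1 fell with AML1/ETO, 5 rose and 1 fell with W692A, and 6 were lower with W692A than with AML1/ETO. Array means were 4.50 to 4.69 with GFP, 5.99 to 6.04 with AML1/ETO and 5.23 to 5.48 with W692A. The part of any of these cell types in the Azin2 values was not tested.

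The genes whose profiles were nearest to that of Azin2 were found over the 10 arrays among 8819 other genes above background, by the root mean square distance between profiles centred per gene. They were Inf2, a formin (0.199), Tesc, a calcium-binding protein (0.267), Sh2d5 (0.385), Ptpn3, a tyrosine phosphatase (0.410), and Prg3, of the eosinophil granule (0.440). The median distance of all compared genes was 1.46. A gene entered if 1 group was above the bound, and with AML1/ETO 0 of 3 arrays of Inf2, 1 of 3 of Tesc and 2 of 3 of Sh2d5 were, so the distances and order of these genes rest partly on values at background. Inf2 gave 4.94, 5.19 and 4.92 with GFP, 1.32, 1.42 and 1.75 with AML1/ETO and 2.39, 2.59, 2.44 and 2.71 with W692A, so that W692A lay between the other groups, as with Azin2. Ptpn3 had means of 6.59, 3.46 and 4.58 in the same order. Prg3 differed in that its W692A and AML1/ETO means were 4.35 and 4.34. Among the measured polyamine genes the nearest to Azin2 was Srm, at 1.20, and the farthest was Odc1, at 2.05. These distances mostly carry the differences between 3 groups and are a description.

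**Figure D5:**
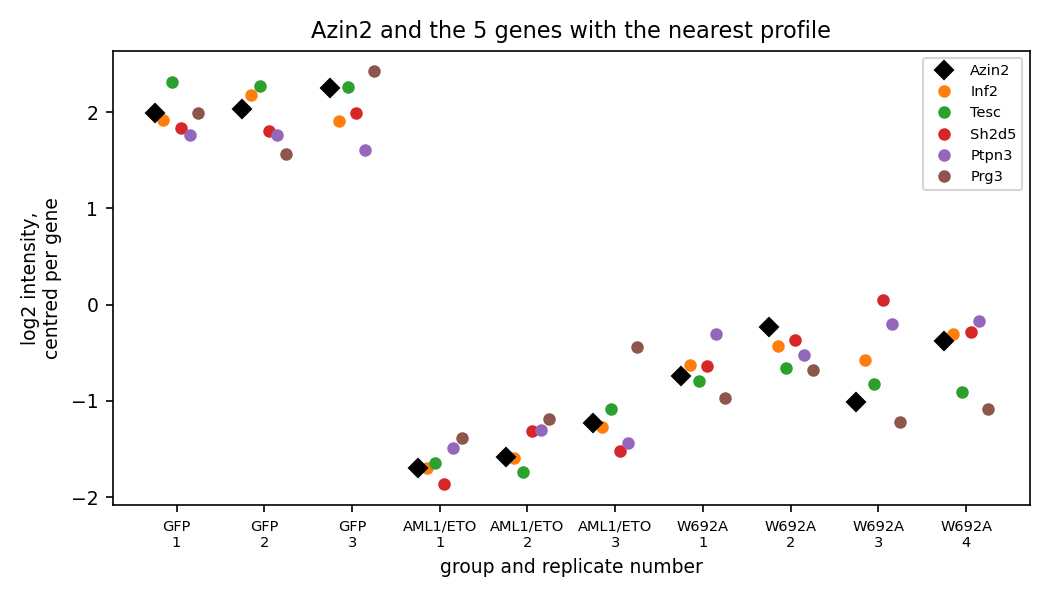
Log2 intensity on each array, centred per gene on the mean of its 3 group means, for Azin2 (diamonds) and the 5 genes with the nearest profile (circles). GFP arrays are high and AML1/ETO arrays low for all 6 genes, with W692A arrays between them except for Prg3.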

How the data were processed

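The authors deposited a log2 intensity for each probe set on each array. The submitters' processing notes name RMA. That the scale is log2 was read from the range, -0.18 to 12.77. RMA gives all arrays 1 distribution, which hides differences in total RNA. Per the labels, 50 ng of RNA was amplified in more than one round, which favours 3′ ends. Of 45101 probe sets, 64 were controls, 9160 others had no listed gene and 932 with several genes were not used, leaving 34945. Symbols were updated by gene identifier to GRCm38.p6 (34741 matched, 204 kept). Each gene was represented by its brightest probe set, by the mean of the 10 arrays. Groups were compared with limma (version 3.58.1, R 4.3.3), lmFit and eBayes, in 1 fit of all 10 arrays with 7 residual and 7.53 prior degrees of freedom, with Benjamini-Hochberg adjustment across the 18193 genes. The fit was tested on simulated data. The sources used here name no scan date or other batch.

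The members and all lists were chosen with earlier results of these data known. Named were all members, other pathway genes that passed with at least a 1.5-fold difference, Myc and Mycn, and the 5 genes nearest to Azin2, skipping provisional names. Examples from the marker lists, and the list genes given by name because they did not pass, were picked after their values were seen. Alternatives were averaging the probe sets of a gene, dropping the dimmest 40% of genes or those at background, further quantile normalization, median subtraction, fits of 2 groups, array weights, a trended robust prior, the Gapdh covariate, the replicate number as a block, and leaving out each array. A fit of every probe set was added after seeing the data. The precision is limited by the number of arrays.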

Additional observations from a re-analysis of the deposited data

Results flagged for a closer look

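Single arrays of the W692A group stood apart from the other 3 for 5 of 23 genes examined, by Dixon's test of the gap to the nearest array, where chance gives about 1 in 20. Groups of 3 arrays were not tested. For Odc1, W692A replicate 1 was at 8.29 and the others at 7.69 to 7.76. Mycn was at 10.63 in the same replicate and at 10.97 to 11.02 in the others, and Eif5a2 was at 1.89 there, below the background bound, and at 1.27 to 1.37 in the others. Atp13a3 was at 4.95 in W692A replicate 3 and at 5.23 to 5.29 in the others. Enoph1 was at 7.16 in W692A replicate 4 and at 6.75 to 6.81 in the others.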

How the results depend on the processing

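Under 21 alternatives, 431 differences of the polyamine genes other than Azin2 kept their side of the threshold, 9 lost a call and 1 gained one. None changed sign after a call, but some that did not pass did. For Odc1 the difference between W692A and GFP ranged from -0.33 to 0.30. With averaged probe sets the Azin2 difference was -1.49 for AML1/ETO and -1.12 for W692A against GFP and 0.37 between the constructs, where probe sets below background enter the average. With the Gapdh covariate it was -3.27 and -2.13, and 506 genes in all passed between W692A and GFP in place of 2642. That covariate did not overlap between the W692A and GFP arrays, so its part and that of the construct are hard to tell apart. The count of polyamine genes that passed between W692A and GFP was 0 with averaged probe sets, with the Gapdh covariate and with the replicate block, and 0 to 1 on leaving out an array (0 without GFP replicate 1, GFP replicate 2 or W692A replicate 4), in each case through Oaz2; the cause was not tested. On leaving out each array the count was 5 between AML1/ETO and GFP and 3 to 4 between the constructs, and Azin2 differed by -3.73 to -3.50, by -2.80 to -2.54 and by 0.80 to 1.06. Over all genes 4477 to 5319, 1774 to 2615 and 2943 to 3777 passed. Oaz2 passed between the constructs only with averaged probe sets (-0.30, limma adjusted p = 0.023).

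Replicate numbers are shared between groups, but the sources do not say that they mark a shared day or mouse. Over 8820 genes the deviations of 9 same-numbered pairs correlated at -0.12 to 0.44, with 4 above 0.1, and 5 of 9 arrays correlated best with their own number, so the numbers were not taken as pairs. With the replicate block 5272, 2344 and 3509 genes passed in the 3 comparisons, and Oaz2 between W692A and GFP was at 0.41 (limma adjusted p = 0.0677). Precision is set by 3 or 4 arrays a group, and the values of Sat1 and Smox lie near or below background.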
